A study of Anopheles stephensi with 4 samples.

Results

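The transcripts described here are the assembled RNAs of adult female Anopheles stephensi that lie in repeats. They are the 359 transcripts, of 25794 in the deposited annotation, that carry the class code r. In the GffCompare scheme this code marks an assembled transcript that overlaps no reference gene and most of whose bases are masked as repeat sequence. The code was the only ground for choosing them, and no measured level was used. All 359 had an accepted level in every tissue, given as FPKM. This is the number of sequenced fragments per kilobase of RNA, relative to a library size that the authors had scaled between libraries. The same FPKM therefore need not stand for the same share of each library. The 359 transcripts belong to 350 assembled loci on 299 scaffolds.

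Anopheles stephensi is an Asian malaria vector. The 4 groups were the ovary, the midgut, the Malpighian tubules and the fat body, all dissected from laboratory-reared adult females fed on sugar, with 1 library per tissue sequenced on 2 lanes. The labels name no strain, treatment or transgene that sets the groups apart. The lanes repeat the sequencing and not the mosquitoes, so differences between tissues have no replicate check, no p-value is given, and a tissue value stands for 1 library. The labels do not say how many females were dissected.

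Repeats in insect genomes are mostly transposable elements, satellites and their remnants. Transposable elements are mobile DNA, and many encode the enzymes with which they copy or move themselves. In the insect germ line, small RNAs of the piRNA pathway (Piwi-interacting RNAs) silence them, a pathway worked out mainly in Drosophila ovaries and also active in mosquito somatic tissues. The ovary holds the germ line, whereas fat body (the counterpart of liver and adipose tissue), midgut (digestion) and Malpighian tubules (excretion) are somatic. The levels in ovary are therefore set against those in the 3 somatic tissues. The files name no repeat family, so the kind of element behind each transcript is not analysed here. The genome sequence was not used here either, and the members are given by position.

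The repeat transcripts were short and mostly unspliced. Their summed exon length ran from 200 to 5481 bases, with a median of 479 bases (quartiles 307.5 and 723), against 719.5 bases for the intergenic transcripts outside repeats and 651 bases for intergenic transcripts with a single exon. Of the 359, 196 (54.6%, 95% Wilson interval 49.4 to 59.7) were under 500 bases, against 31.5% (29.4 to 33.7) of the single-exon intergenic transcripts. These intervals, here and below, cover counting error only. A single exon was present in 309 (86.1%), 2 exons in 45 and 3 exons in 5. The strand was not assigned for 291 (81.1%), all with a single exon. The 55 introns of the 50 spliced members had a median of 73 bases, and 45 of them (81.8%) were under 100 bases. Among the 1569 introns of intergenic transcripts the median was 101 bases and 49.5% were under 100 bases.

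Most repeat transcripts lay on small scaffolds. The size of a scaffold was taken as the highest coordinate annotated on it, which is a lower bound of its length. Scaffolds under 100000 bases held 258 of the 359 (71.9%, 67.0 to 76.3), and scaffolds of 1000000 bases or more held 65 (18.1%, 14.5 to 22.4). Of the transcripts that match a reference transcript, 68.5% lay on the large scaffolds and 8.75% on the small ones. The 62 large scaffolds made up 72.0% of the summed annotated span, 139 Mb, and the 2386 small ones 3.54%, 6.84 Mb. The placement was shared with single-exon intergenic transcripts, of which 70.8% (68.6 to 72.8) lay on small and 22.1% (20.2 to 24.1) on large scaffolds. Both pairs of intervals overlap.

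**Figure D1:**
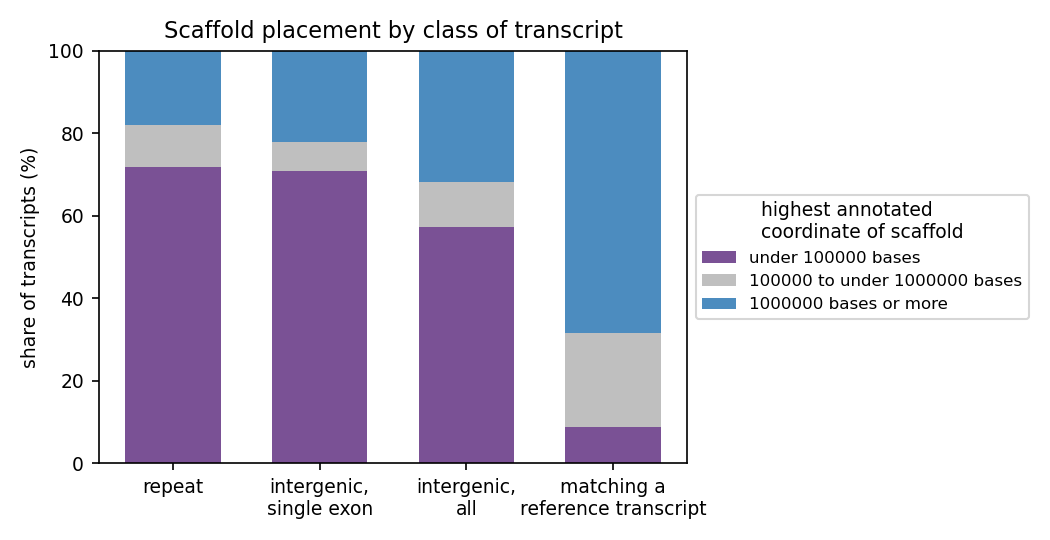
Share of transcripts (vertical axis, percent) on scaffolds of 3 size classes, for repeat transcripts, single-exon intergenic, all intergenic and reference-matching transcripts. Repeat and single-exon intergenic transcripts sit mainly on scaffolds under 100000 bases (71.9% and 70.8%), and reference-matching ones on scaffolds of 1000000 bases or more (68.5%).

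Many of these scaffolds hold nothing else. In 206 cases (57.4%, 52.2 to 62.4) the repeat transcript was the only transcript annotated on its scaffold, against 64.9% (62.6 to 67.1) of single-exon intergenic ones. In 97 cases (27.0%) it began within the first 10 bases of the scaffold, against 34.6% of single-exon intergenic, 26.7% of all intergenic and 3.84% of all transcripts. A reference transcript was on the same scaffold for 124 members, at a median distance of 5996.5 bases (quartiles 2042 and 13212). Of these, 20 lay within 1000 bases, and none overlapped the span of one. The closest was ANSTF.285.1 (scaffold_00001, 5032253 to 5033359, plus strand), 11 bases from a reference transcript and 1 of the 5 members with 3 exons, the largest number in the class. It stood at 2.78 FPKM in Malpighian tubules and at most 0.0765 FPKM elsewhere.

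Neighbouring members could be sought only for the 153 that shared a scaffold with another transcript. Of these, 31 (20.3%) had another repeat locus within 10000 bases. No scaffold held more than 6 members, and no group of neighbours within 10000 bases had more than 3. There were 4 groups of 3 members. One of them, ANSTF.2611 on scaffold_00011 (723448 to 726508, plus strand), is a single locus with 3 overlapping structures. Another, on scaffold_00006 (4163631 to 4167085), held ANSTF.1817.1, ANSTF.1818.1 and ANSTF.1819.1. These neighbours had different levels. In fat body ANSTF.1817.1 stood at 92.99 FPKM, ANSTF.1819.1 at 0.888 FPKM and ANSTF.1818.1 was listed at 0. A further group lay on scaffold_00167 (116 to 2739), where ANSTF.10030.1 reached 15.4 FPKM in fat body while ANSTF.10028.1 and ANSTF.10029.1 stood at 0.189 and 1.60 FPKM. The last, on scaffold_00837 (1141 to 2624), combined ANSTF.10552.1 on the plus strand with the 2 structures of ANSTF.10553 on the minus strand, at up to 2.90 FPKM.

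The levels were low. With the deposited FPKM, the median repeat transcript stood at 0.804 in ovary, 0.842 in fat body, 0.714 in midgut and 1.05 in Malpighian tubules. The same medians over single-exon intergenic transcripts were 1.32, 1.44, 1.17 and 1.60 FPKM. Over reference-matching transcripts, many of which were listed at 0, they were 0.678, 0.737, 0.453 and 0.593 FPKM. The most abundant repeat transcript reached 47.6 FPKM in ovary, 30.3 FPKM in Malpighian tubules, 93.0 FPKM in fat body and 116 FPKM in midgut. With columns scaled to equal sums, as described below, the repeat median was 1.78 in ovary, which then came first, 1.75 in Malpighian tubules, 0.561 in midgut and 0.901 in fat body. With deposited FPKM, 80 members (22.3%) reached 5 FPKM somewhere and 38 (10.6%) reached 10 FPKM. For single-exon intergenic transcripts these shares were 41.3% and 26.4%. With equal sums, 112 (31.2%) and 52 (14.5%) members reached these levels, against 52.8% and 35.4%. With the median-ratio scaling described below, 23.4% and 10.6% of members reached them, against 51.8% and 38.2% of all transcripts.

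Few fragments stand behind such values. The fragment numbers were estimated from the deposited scaled counts. Summed over all transcripts with values, they came to between 27490192 (midgut) and 36316831 (Malpighian tubules). A repeat transcript had a median of 11.01 fragments in ovary, 8.0 in fat body, 4.0 in midgut and 12.0 in Malpighian tubules. For members under 300 bases, 1 FPKM stood for about 1.76 fragments in midgut and 5.31 in ovary. For those of 500 bases or more it stood for 11.9 and 33.3 fragments. A threshold of 1 FPKM therefore asks for more fragments in ovary than in midgut. Members with fewer than 1 estimated fragment numbered 107 in midgut, 52 in fat body, 46 in ovary and 30 in Malpighian tubules.

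The scaling between tissues decides how ovary compares, because the deposited FPKM columns had different sums: 452542 in ovary, 935008 in fat body, 1272696 in midgut and 603002 in Malpighian tubules. Scaling all columns to the same sum of 1000000 multiplied ovary by 2.21, Malpighian tubules by 1.66, fat body by 1.07 and midgut by 0.786. Which scaling reflects the RNA content of the tissues cannot be told from these files. In whole tissues, fewer cells of a type and less RNA per cell cannot be told apart either. Counts between tissues are given under both scalings, the deposited first, and the values of single members with deposited FPKM unless equal sums are named.

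Which tissue had the fewest repeat transcripts with signal depended on the limit. With the deposited FPKM at 1 FPKM or more, 142 were detected in ovary (39.6%, 34.6 to 44.7), 151 in midgut (42.1%, 37.1 to 47.2), 170 in fat body (47.4%, 42.2 to 52.5) and 187 in Malpighian tubules (52.1%, 46.9 to 57.2). Over all 25785 transcripts with values the background shares were 57.8% in ovary, 52.7% in midgut, 57.6% in fat body and 58% in Malpighian tubules. The interval of ovary overlapped those of midgut and fat body but not that of Malpighian tubules. With equal sums the order changed: 239 were detected in Malpighian tubules (66.6%), 238 in ovary (66.3%, 61.3 to 71.0), 173 in fat body (48.2%) and 137 in midgut (38.2%, 33.3 to 43.3). The shares over all transcripts were then 64.3% in Malpighian tubules, 66.8% in ovary, 58.4% in fat body and 50% in midgut. At 1 or more under both scalings, the repeat transcripts were detected more often in Malpighian tubules than in midgut. With deposited FPKM, midgut was the lowest tissue at 0.1 FPKM (72.7%, against 85.5% in ovary), at 0.5 FPKM (56.5% against 64.3%) and with at least 10 fragments (31.2% against 33.4%). Midgut was above Malpighian tubules at 2 FPKM (30.1% against 26.2%) and at 5 FPKM (14.2% against 10.6%). Shares over all transcripts are given only at 1 FPKM, so whether these orders are particular to repeat transcripts was not tested. Among the 163 members of 500 bases or more, 47.9% were at 1 FPKM or more in ovary, and 42.9% in both fat body and midgut.

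**Figure D2:**
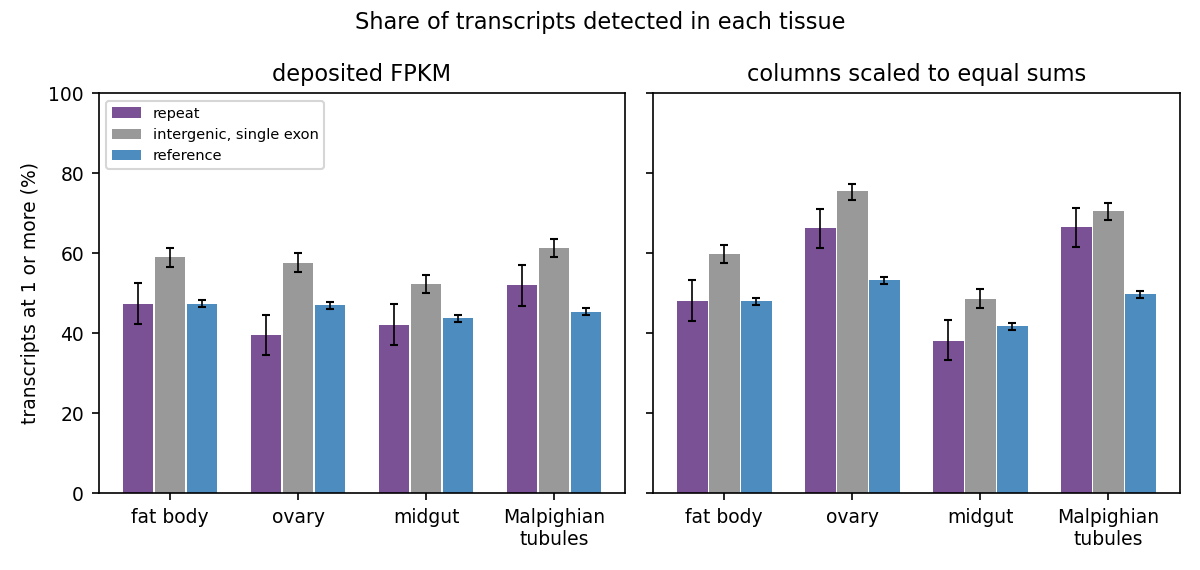
Share of transcripts at 1 or more (vertical axis, percent) in each tissue for repeat, single-exon intergenic and reference-matching transcripts, with deposited FPKM (left) and with columns scaled to equal sums (right); error bars are 95% Wilson intervals. The repeat bar of ovary moves from 39.6% to 66.3% between the panels, and the repeat bars stay below those of single-exon intergenic transcripts in every tissue.

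Detection in ovary without any somatic tissue was set against the reverse. With deposited FPKM, 40 members (11.1%, 8.29 to 14.8) were at 1 FPKM or more in ovary and below it in all 3 somatic tissues, and 155 (43.2%, 38.2 to 48.3) were at 1 FPKM or more in a somatic tissue and below it in ovary. Another 102 (28.4%) were detected on both sides, against 46.2% of single-exon intergenic transcripts. With the median-ratio scaling, 29.8% of members and 51.7% of all transcripts were detected on both sides. With deposited FPKM 62 members were detected nowhere, so that 297 (82.7%, background 76.2%) were detected in any tissue, and 336 (93.6%, background 79.9%) with equal sums. Over all transcripts with deposited FPKM, 6.85% were in ovary and no somatic tissue and 18.4% in a somatic tissue and not ovary. The higher shares of members on 1 side only thus went with a lower share on both sides. With equal sums, 57 members (15.9%, 12.5 to 20.02) were in ovary and no somatic tissue, and 98 (27.3%, 22.9 to 32.1) in a somatic tissue and not ovary. The corresponding shares over all transcripts were 8.3% and 13.1%. Among members of 500 bases or more the counts were 27 (16.6%) and 59 (36.2%) with deposited FPKM, but 37 (22.7%) and 35 (21.5%) with equal sums. Since 3 tissues stand against 1, detection in a single tissue was also counted: 30 members (8.36%, background 4.21%) were detected in fat body only, 25 (6.96%, background 2.52%) in Malpighian tubules only and 18 (5.01%, background 2.33%) in midgut only with deposited FPKM, each below the 40 of ovary only. With equal sums these numbers were 16 (4.46%, background 3.01%), 23 (6.41%, background 2.75%) and 12 (3.34%, background 1.25%), against 57. Single-exon intergenic transcripts had similar shares with deposited FPKM. They were 11.5% in ovary and no somatic tissue, 7.04% in fat body only, 6.25% in Malpighian tubules only and 4.39% in midgut only. Shares above the background in a single tissue were therefore not particular to repeat transcripts. In a somatic tissue and not ovary the intergenic share was 33%, below the 43.2% of repeat transcripts. The difference was smaller against the 36.2% of members of 500 bases or more. With the median-ratio scaling those members had 35.0% (28.1 to 42.6), an interval that holds the 32.4% of single-exon intergenic transcripts of all lengths. Shares of all or intergenic transcripts of 500 bases or more are not given.

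No single tissue held most of the highest levels. With deposited FPKM it was ovary for 99 members (27.6%, 23.2 to 32.4), midgut for 95, Malpighian tubules for 90 and fat body for 73, and 2 members were at 0 in every tissue. The background shares over all transcripts were 33.4% for ovary, 22.6% for midgut, 17.3% for Malpighian tubules and 20.3% for fat body. With equal sums, Malpighian tubules led for 134 members (37.3%, 32.5 to 42.4) and ovary for 133 (37.0%, 32.2 to 42.2), ahead of fat body with 50 (13.9%) and midgut with 40 (11.1%), while over all transcripts ovary led for 45.6%, Malpighian tubules for 24.7%, fat body for 14.4% and midgut for 8.87%. The share of repeat transcripts highest in Malpighian tubules was thus above the background under both scalings, and the share highest in ovary below it. Among members of 500 bases or more the difference for ovary was not kept under either scaling. With deposited FPKM ovary was highest for 36.2% (29.2 to 43.8) and Malpighian tubules for 19.6% (14.3 to 26.4), intervals that hold the background. With equal sums these were 45.4% (37.9 to 53.1), which holds the background, and 32.5% (25.8 to 40.0), which lies above it. For single-exon intergenic transcripts, the shares highest in Malpighian tubules were 25.1% and, with equal sums, 32.1%, and those highest in ovary 33.8% and 44.4%.

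Ovary and somatic levels were also compared by size. Among the 297 members at 1 FPKM or more in any tissue, log2(FPKM + 1) in ovary minus the mean over the somatic tissues had a median of -0.47 (quartiles -0.94 and 0.34), and 90 members (30.3%) were above 0. The median over all 19648 transcripts at that level was -0.13, and over the 1611 single-exon intergenic ones -0.28. With equal sums, 336 members passed, the median difference was 0.13 (quartiles -0.60 and 1.09) and 180 (53.6%) were above 0, against a median of 0.72 over all transcripts and 0.47 over single-exon intergenic ones. The sign for the repeat transcripts therefore depended on the scaling, but their median lay below that of all transcripts and of single-exon intergenic transcripts under both. With another scaling, by the median ratio of the 4322 reference-matching transcripts at 1 FPKM or more in all tissues, the medians were -0.44 for repeat, -0.10 for all and -0.25 for single-exon intergenic transcripts. Adding 1 FPKM before the logarithm understates differences at low levels.

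**Figure D3:**
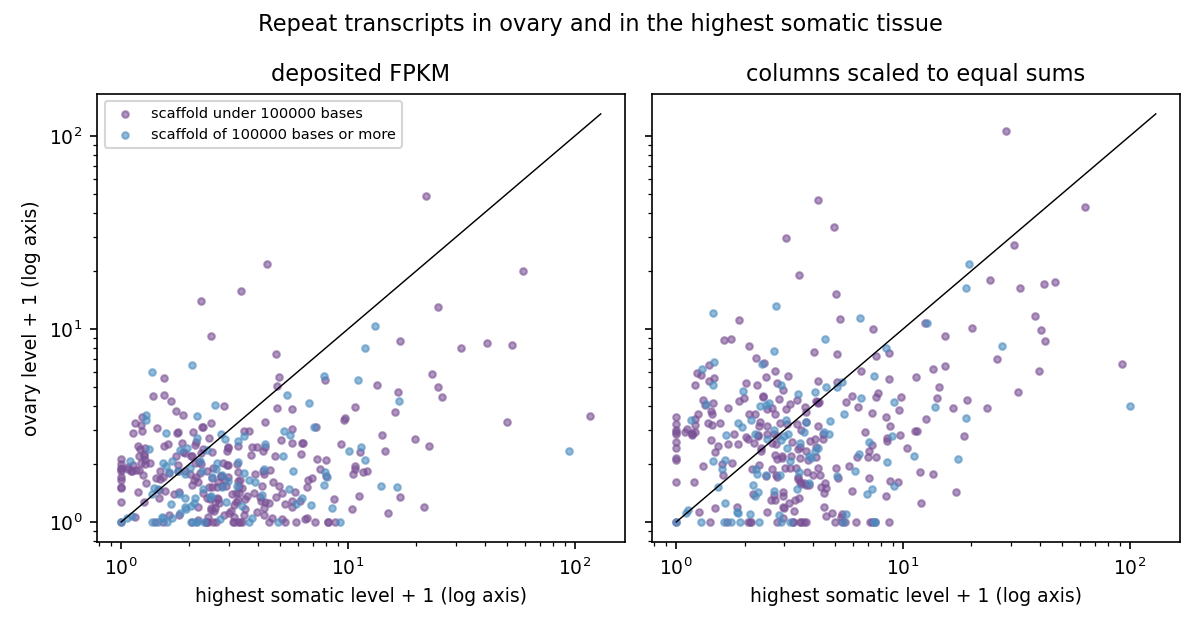
Each point is 1 repeat transcript, with its highest somatic level + 1 (horizontal, log axis) and its ovary level + 1 (vertical, log axis), for deposited FPKM (left) and equal sums (right); the line marks equal levels and colours give the scaffold size. Ovary is the highest tissue, with the point above the line, for 99 members on the left and 133 on the right.

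The share of the estimated fragments assigned to transcripts in each library needs no scaling between tissues. The repeat transcripts took 0.0601% of the ovary fragments, 0.0565% of those of Malpighian tubules, 0.0467% of those of fat body and 0.0438% of those of midgut. Intergenic transcripts took between 3.47% (ovary) and 5.23% (fat body). The first place of ovary among repeat transcripts depended on which loci were counted. ANSTF.11147 gave 4366 of the 20950 repeat fragments of ovary, 20.8%. Without it, a step chosen after seeing the data, ovary had 0.0476% and Malpighian tubules, then first, 0.0540%. Fat body then had 0.0445% and midgut 0.0417%. This locus was picked for its ovary fragments, so leaving it out was bound to lower ovary. Without ANSTF.10390, the top locus of the somatic tissues, ovary stayed first at 0.0564%, against 0.0488% in Malpighian tubules. Without the 4 loci with most fragments, ovary had 0.0392% and Malpighian tubules 0.0395%. A few loci carried much of the signal everywhere. The 5 loci with most fragments held 33.7% in Malpighian tubules and between 38.9% and 40.1% in the other tissues, out of 350 loci.

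The locus ANSTF.11147 (scaffold_04615, 2 to 1367, minus strand) was the most abundant repeat locus of ovary. It has 2 structures, each with 2 exons and covering the same span, and their introns are of 70 and 87 bases. ANSTF.11147.1 stood at 47.6 FPKM in ovary (the authors' bounds 40.8 to 54.3), 21.0 FPKM in midgut, 17.8 FPKM in fat body and 16.5 FPKM in Malpighian tubules. The ovary bounds lay above those of the other 3 tissues. ANSTF.11147.2 stood at 20.7 FPKM in ovary (15.6 to 25.8), 3.40 FPKM in midgut, 1.94 FPKM in Malpighian tubules and 1.87 FPKM in fat body. The form with the 87-base intron held 30.3% of the level of the locus in ovary, 13.9% in midgut, 10.6% in Malpighian tubules and 9.51% in fat body, a share that no scaling between tissues can change. The division of fragments between overlapping forms is the authors' estimate.

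Other members were higher in ovary than in all somatic tissues. ANSTF.11313.1 (scaffold_06775, 1 to 1094, plus strand, 1 exon) had 14.7 FPKM in ovary (12.0 to 17.5), 0.687 FPKM in midgut, 1.68 FPKM in fat body and 2.39 FPKM in Malpighian tubules, from 778 fragments in ovary. ANSTF.10496.1 (scaffold_00649, 4436 to 4709, strand not assigned) had 12.9 FPKM in ovary (7.16 to 18.7), from 84 fragments. It was listed at 0 for midgut, and Malpighian tubules had 1.24 FPKM and fat body 1.12 FPKM. The ratio of FPKM + 1 in ovary to the highest somatic tissue was 6.21 for ANSTF.10496.1, 4.93 for ANSTF.11147.2 and 4.64 for ANSTF.11313.1, the 3 highest among the members, and 9.66, 11.1 and 6.76 with equal sums. The longest member, ANSTF.10136.1 (scaffold_00185, 39102 to 44652, plus strand, 2 exons, 5481 bases), was also highest in ovary, at 1.93 FPKM (1.54 to 2.33), against 0.779 FPKM in midgut, 0.627 FPKM in Malpighian tubules and 0.591 FPKM in fat body. Counting all members by the authors' bounds, a count added after seeing the data, 21 of 297 (7.07%) had an ovary lower bound above the upper bounds of the other tissues, where 20.2% of all transcripts did. With equal sums these were 32 of 336 (9.52%) and 30.8%. Shares below the background were not particular to ovary. With deposited FPKM they were 5.39% against 10.8% in fat body, 7.07% against 12% in midgut and 2.02% against 7.66% in Malpighian tubules. Neither these shares nor those for low ovary below were taken at matched fragment numbers.

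The opposite pattern, low in ovary, was seen in other abundant members. ANSTF.12008.1 (scaffold_17094, 340 to 624, strand not assigned, 285 bases) reached 116 FPKM in midgut (94.4 to 137), against 2.53 FPKM in ovary (0.116 to 4.95). Malpighian tubules had 24.5 FPKM and fat body 20.6 FPKM. The lowest somatic FPKM + 1 was 6.12 times that of ovary, and 3.49 times with equal sums. ANSTF.10988.1 (scaffold_03157, 1207 to 1760, minus strand) and ANSTF.11624.1 (scaffold_11410, 71 to 603, minus strand) came next, with ratios of 4.15 and 3.86, and 1.71 and 1.67 with equal sums. Their levels were alike in every tissue: 18.1 and 18.3 FPKM in fat body, 3.46 and 3.996 FPKM in ovary, 24.84 and 23.97 FPKM in Malpighian tubules, and 17.5 and 19.7 FPKM in midgut. Both have 2 exons, with an intron of 92 bases in the first and 94 bases in the second. Whether they are copies of the same element, between which the authors' counting could divide reads, was not tested. With deposited FPKM, 17 of 297 members (5.72%) had ovary bounds below those of all other tissues, against 12.3% of all transcripts, and with equal sums 3 of 336 (0.893%), against 5%. These 3 were ANSTF.12008.1, ANSTF.11791.1 and ANSTF.6617.1, the last named after its values were seen. ANSTF.6617.1 (scaffold_00049, 1247738 to 1252412, plus strand, 1 exon) had 12.9 FPKM in midgut, 3.44 FPKM in Malpighian tubules, 2.72 FPKM in fat body and 0.540 FPKM in ovary.

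Further members with high levels were spread over the somatic tissues. ANSTF.1817.1 (scaffold_00006, 4163631 to 4163837, 207 bases, strand not assigned) had 93.0 FPKM in fat body (67.7 to 118) and 27.4 FPKM in Malpighian tubules. It was near 1 FPKM in the other tissues, at 1.34 FPKM in ovary and 0.943 FPKM in midgut, the last from 1.0 estimated fragment. ANSTF.11343.1 (scaffold_07146, 1 to 1060) had 58.2 FPKM in fat body (51.5 to 64.95), 30.3 FPKM in Malpighian tubules, 23.9 FPKM in midgut and 18.9 FPKM in ovary, and was the most abundant member of Malpighian tubules. With equal sums its level was 62.3 in fat body, 50.3 in Malpighian tubules, 41.7 in ovary and 18.8 in midgut, so the place of ovary and midgut changed. ANSTF.11791.1 (scaffold_13885, 1 to 714, minus strand, 2 exons) was close to even in the somatic tissues, with fat body at 40.0 FPKM, midgut at 36.01 FPKM and Malpighian tubules at 27.7 FPKM, while ovary stood at 7.45 FPKM.

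Among the most abundant members, 3 more were highest in midgut. ANSTF.11396.1 (scaffold_07800, 783 to 1004) reached 51.9 FPKM there (36.1 to 67.7) from 69.0 fragments, and 12.7 FPKM in Malpighian tubules, 7.25 FPKM in ovary and 7.16 FPKM in fat body. ANSTF.11285.1 (scaffold_06346, 5 to 356) reached 49.2 FPKM (38.9 to 59.5), against 2.30 FPKM in ovary. Fat body had 11.5 FPKM and Malpighian tubules 11.3 FPKM. ANSTF.10390.1 (scaffold_00390, 4868 to 8524, minus strand, 3 exons, 3507 bases) had 30.3 FPKM in midgut (27.2 to 33.5), 19.2 FPKM in Malpighian tubules, 16.2 FPKM in fat body and 6.92 FPKM in ovary, and with equal sums its highest level moved to Malpighian tubules (31.9, against 23.8 in midgut). It is the repeat locus with most fragments in fat body, midgut and Malpighian tubules, with 2779 fragments in the last, though shorter members had higher FPKM in each.

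**Figure D4:**
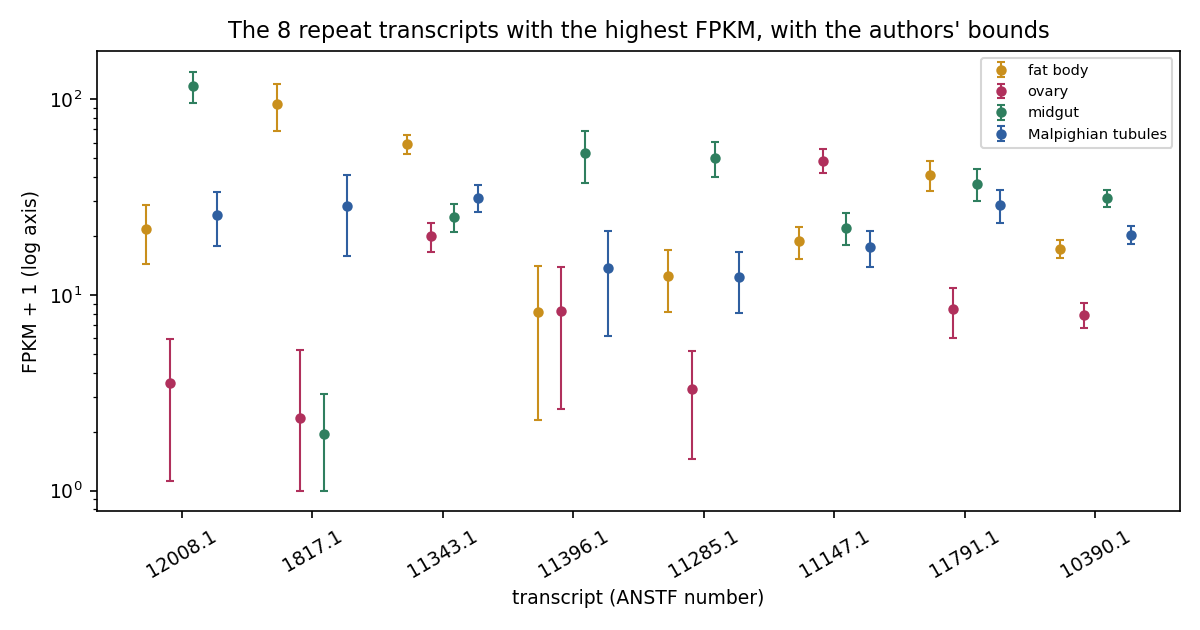
FPKM + 1 (vertical, log axis) in the 4 tissues for the 8 repeat transcripts with the highest FPKM, with the authors' bounds as bars. Ovary is the highest tissue for ANSTF.11147.1 (47.6 FPKM) and the lowest for ANSTF.12008.1, ANSTF.11343.1, ANSTF.11285.1, ANSTF.11791.1 and ANSTF.10390.1.

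The repeat transcripts were also tested for enrichment in a tissue. A transcript counted as enriched if FPKM + 1 of its highest tissue exceeded that of its next tissue by a factor of 5 or more. With deposited FPKM this held for 6 of the 297 members (2.02%), against 10.6% of all transcripts, and with equal sums for 13 of 336 (3.87%), against 15.2%. The count depends on the rule: adding 0.1 FPKM instead of 1 gave 47 of 297 (15.8%, background 20%), and bounds in a tissue above those of all others gave 64 (21.5%, background 50.7%). A transcript below 4 FPKM cannot be called, and 103 of the 359 members reached that level. With the median-ratio scaling, 28.7% of members and 55.9% of all transcripts reached 4. Among transcripts between 1 and 10 FPKM in their highest tissue, a band chosen after seeing the data, 3 of 259 members (1.16%) and 3.16% of all transcripts were called. With equal sums these shares were 4 of 284 (1.41%) and 4.74%.

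The 6 enriched members came from 3 tissues: 3 from midgut (1.01%, background 2.75%), 2 from fat body (0.673%, background 3.91%) and 1 from ovary (0.337%, background 2.21%). In midgut, ANSTF.11999.1 (scaffold_16910, 1 to 606) had 14.1 FPKM (10.7 to 17.4) and at most 0.732 FPKM elsewhere, a ratio of 8.70 and of 6.76 with equal sums. ANSTF.11504.1 (scaffold_09344, 1 to 893) had 5.59 FPKM in midgut and at most 0.0816 FPKM elsewhere, and ANSTF.11744.1 (scaffold_13206, 1 to 736) had 5.48 FPKM and at most 0.203 FPKM elsewhere. Their ratios of 6.09 and 5.39 fell to 4.87 and 4.36 with equal sums, below the limit. In fat body, ANSTF.10030.1 (scaffold_00167, 1992 to 2739) had 15.4 FPKM (12.1 to 18.6), against 1.47 FPKM in Malpighian tubules, 0.511 FPKM in ovary and 0.336 FPKM in midgut, with ratios of 6.63 and 5.08. The other in fat body was ANSTF.10312.1, described next, and the only one in ovary was ANSTF.10496.1. No member was enriched in Malpighian tubules with deposited FPKM, against 1.73% of all transcripts. With equal sums the 13 were 8 in ovary (2.38%, background 7.95%), 3 in Malpighian tubules (0.893%, background 2.56%), 1 in fat body (0.298%, background 3.14%) and 1 in midgut (0.298%, background 1.57%). Of the 3 in Malpighian tubules, ANSTF.10414.1 (scaffold_00432, 1160 to 1966, plus strand, 2 exons) was the highest, at 13.5 FPKM there (9.95 to 17.1), and had 0.897 FPKM in fat body, 1.32 FPKM in ovary and 2.05 FPKM in midgut. This transcript was named after its values were seen.

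A change of structure between tissues appeared at ANSTF.10312 (scaffold_00294, 9375 to 13408, plus strand), which has a form with 1 exon and a form of the same span with 3 exons and introns of 57 and 70 bases. The unspliced ANSTF.10312.1 stood at 9.79 FPKM in fat body (8.55 to 11.0), 0.881 FPKM in ovary (0.484 to 1.28), 0.570 FPKM in Malpighian tubules and 0.0909 FPKM in midgut. The spliced ANSTF.10312.2 stood at 3.55 FPKM in ovary (2.81 to 4.28), 0.538 FPKM in midgut, 0.444 FPKM in Malpighian tubules and 0.352 FPKM in fat body (0 to 0.709). The spliced form thus held 80.1% of the level in ovary and 3.47% in fat body, and 85.5% in midgut and 43.8% in Malpighian tubules, where the locus was low. The bounds of the 2 forms did not overlap in fat body or in ovary.

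**Figure D5:**
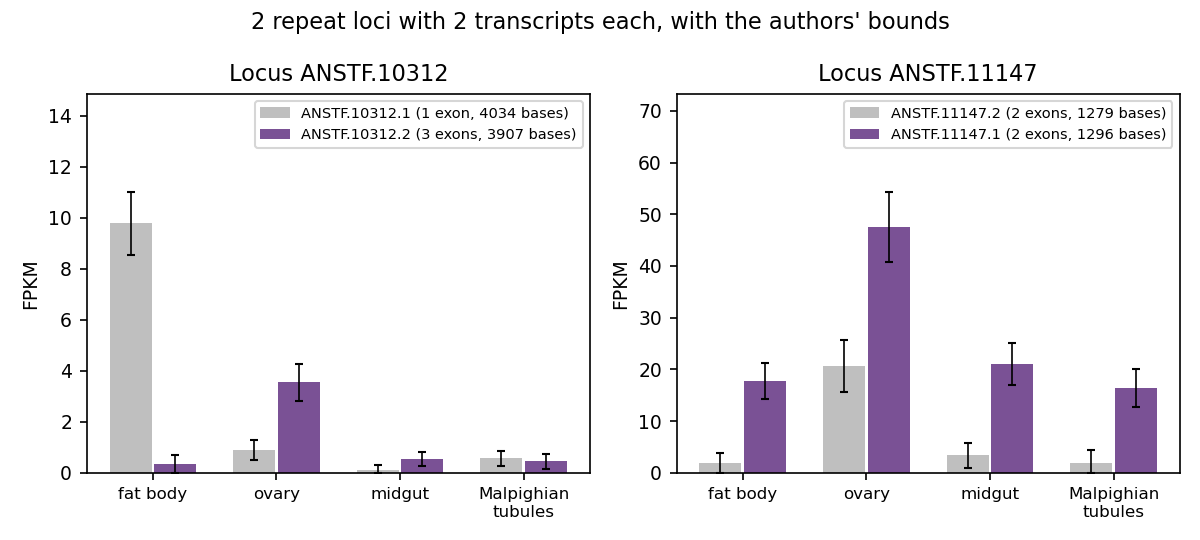
FPKM (vertical axis, from 0) of the 2 transcripts of locus ANSTF.10312 (left) and of locus ANSTF.11147 (right) in each tissue, with the authors' bounds as bars. At the first the 1-exon form leads in fat body (9.79 FPKM) and the 3-exon form in ovary (3.55 FPKM); at the second both forms are highest in ovary.

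Of the 350 loci, 8 had more than 1 structure, with 17 members in all. At ANSTF.2611 the unspliced ANSTF.2611.1 held 68.5% of the level in fat body, 69.7% in midgut, 62.3% in Malpighian tubules and 29.6% in ovary. The form with 3 exons, ANSTF.2611.3, held 37.4% in ovary and 0.148% in fat body, but the bounds of the forms overlapped in ovary (0.231 to 1.21 and 0.172 to 1.65 FPKM). At ANSTF.3903 (scaffold_00021, 578613 to 580557, minus strand) the spliced ANSTF.3903.2 held 88.2% in Malpighian tubules, at 15.8 FPKM (13.1 to 18.6), and 76.3% in fat body, 48.3% in midgut and 47.7% in ovary. The bounds of its 2 forms overlapped in ovary (0 to 7.08 and 0 to 7.28 FPKM) and in midgut. Levels of transcripts on opposite strands of the same span are uncertain, since the labels name no step that keeps the strand. ANSTF.692.1 (plus strand) and ANSTF.693.1 (minus strand) both begin at 1221909 of scaffold_00003 and end at 1222729 and 1222728, and stood at 12.2 and 4.57 FPKM in midgut. ANSTF.11471.1 and ANSTF.11472.1 share scaffold_08939 in the same way. ANSTF.3903 and both of these pairs were named after their values were seen.

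Pairs of tissues were compared at a ratio of FPKM + 1 of at least 4, among transcripts at 1 FPKM or more in either. With deposited FPKM, 32 of 226 members were higher in midgut than in ovary (14.2%, background 15.1%) and 8 lower (3.54%, background 12.6%). Between fat body and ovary, 22 of 236 were higher in fat body (9.32%, background 13%) and 8 in ovary (3.39%, background 7.88%). Between Malpighian tubules and ovary, 19 of 241 were higher in Malpighian tubules (7.88%, background 13.2%) and 6 in ovary (2.49%, background 8.03%). In each pair, fewer members were higher in ovary than in the somatic tissue, and the background shares had the same direction. With equal sums the direction turned for midgut and fat body: 39 of 280 were higher in ovary than in midgut (13.9%, background 32.1%) and 15 lower (5.36%, background 7.76%), and 26 of 290 were higher in ovary than in fat body (8.97%, background 22.8%) and 12 lower (4.14%, background 8.45%). Malpighian tubules kept the larger number, 25 of 308 (8.12%, background 12.1%) against 20 (6.49%, background 15.4%). The background shares turned in every pair with equal sums. The band below 10 FPKM, as used for enrichment, differed by direction with deposited FPKM. There 8.95% of members were higher in midgut than in ovary (background 5.19%) and 2.63% lower (10.5%). For fat body these shares were 7.04% (5.30%) and 2.51% (6.99%), and for Malpighian tubules 2.93% (4.60%) and 1.46% (5.99%). With equal sums the band gave 3.49% (3.46%) for midgut over ovary and 3.35% (4.44%) for fat body over ovary.

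The somatic tissues were compared in the same way. With deposited FPKM, 18 of 216 members were higher in fat body than in midgut (8.33%, background 10.7%) and 13 in midgut (6.02%, background 9.69%). Between fat body and Malpighian tubules the numbers were 10 of 237 (4.22%, background 7.72%) and 5 (2.11%, background 7.21%). For midgut over Malpighian tubules and the reverse they were 10 of 218 (4.59%, background 6.23%) and 7 (3.21%, background 7.37%). Adding 0.1 FPKM instead of 1 turned both pairs with Malpighian tubules, to 24 in fat body (10.1%, background 12.7%) against 29 (12.2%, background 13%) and 23 in midgut (10.6%, background 9.76%) against 34 (15.6%, background 15%). With equal sums, 18 of 212 were higher in fat body than in midgut (8.49%, background 12.7%) and 9 in midgut (4.25%, background 7.53%). Malpighian tubules then had more of the higher members against both, 25 of 254 (9.84%, background 15.5%) against 6 in midgut (2.36%, background 3.27%) and 19 of 267 (7.12%, background 11.7%) against 8 in fat body (2.996%, background 6.06%). In the band below 10 FPKM, with deposited FPKM, 8.43% were higher in fat body than in midgut (background 6.77%) and 3.93% in midgut (4.74%). Fat body over Malpighian tubules gave 4.5% (3.92%) and the reverse 1% (3.58%). Midgut over Malpighian tubules gave 2.22% (2.94%) and the reverse 2.22% (4.52%).

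The somatic tissues resembled each other more than ovary in which repeat transcripts were high. Spearman's correlation across the 297 members at 1 FPKM or more somewhere was 0.456 for Malpighian tubules with fat body, 0.560 for Malpighian tubules with midgut and 0.415 for fat body with midgut, and between 0.134 and 0.235 for ovary with each somatic tissue. Over 1611 single-exon intergenic transcripts the somatic values lay between 0.548 and 0.674 and those with ovary between 0.380 and 0.515. Across the 101 members with at least 50 fragments in some tissue and 1 FPKM, a limit chosen after seeing the data, the correlation was 0.768 for Malpighian tubules with fat body, 0.737 for Malpighian tubules with midgut and 0.639 for fat body with midgut. It was 0.370 between ovary and Malpighian tubules, 0.213 between ovary and fat body and 0.201 between ovary and midgut. These values are across transcripts, which are not independent replicates, and each tissue is 1 library. They describe ranks, which no scaling between tissues changes for a given set of transcripts. The set itself was chosen with deposited FPKM, and 336 members instead of 297 reach 1 with equal sums. For the 1080 single-exon intergenic transcripts with as many fragments, the 3 correlations with ovary were 0.513 (Malpighian tubules), 0.522 (fat body) and 0.420 (midgut), and those among somatic tissues lay between 0.603 and 0.723.

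Levels were also compared by scaffold size. Members on small and large scaffolds had a median of 0.944 and 0.596 FPKM in fat body, 0.828 and 0.538 FPKM in ovary, 1.04 and 1.1998 FPKM in Malpighian tubules, and 0.759 and 0.749 FPKM in midgut. The highest level was in Malpighian tubules for 26 of the 65 members on large scaffolds (40.0%, 29.0 to 52.1) and for 57 of the 258 on small ones (22.1%, 17.5 to 27.5), and with equal sums for 36 (55.4%, 43.3 to 66.8) and 90 (34.9%, 29.3 to 40.9). Single-exon intergenic transcripts on large scaffolds were highest in Malpighian tubules in 22.4% of 392 cases (18.6 to 26.8), and in 27.6% (23.4 to 32.2) with equal sums. The intervals of repeat and intergenic transcripts on large scaffolds did not overlap. Among the 33 members on large scaffolds with at least 20 fragments in some tissue, a limit chosen after seeing the data, 11 were highest in Malpighian tubules (33.3%, 19.8 to 50.4), and 14 with equal sums (42.4%, 27.2 to 59.2), and these intervals overlap those of the 321 intergenic transcripts with as many fragments (23.7%, 19.4 to 28.6, and 29.0%, 24.3 to 34.2).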

How the data were processed

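RNA of 4 tissues of adult female Anopheles stephensi was sequenced with paired ends, with 1 library per tissue run on 2 lanes. Per the submitters' processing notes, CASAVA 1.8, HISAT2, StringTie 1.2.1 and Cuffdiff were used; the genome build is not given in the sources used here. Per the file headers, the authors deposited FPKM with lower and upper bounds for 25785 transcripts, already scaled between libraries. The deposited values named counts are a scaled signal and not raw counts. They were divided by the mean of 2 steps per tissue, the 2 smallest values shared by at least 50 transcripts alone in their assembled gene, to estimate fragments (34840907 in fat body, 34830892 in ovary). How reads that map to several places were divided is not given, which bears on repeats in particular.

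Class, position, exons and scaffold came from the deposited annotation. The measures and their limits (1 FPKM, ratios of 4 and 5, 100000 and 1000000 bases) are given in the report. No count model was fitted, since no raw counts and 1 library per tissue were at hand. The functions recovered the known answers on simulated data. The members named are the 8 with the highest FPKM, the 2 highest per tissue, the 3 largest ratios of ovary to somatic tissues and the reverse, the enriched, the longest, the first listed of the members with the most exons and the 4 largest groups of neighbours, which tie in size; others are said to have been named later. Members and lists were chosen with earlier results of these data known, and counts by the authors' bounds and limits on fragments were added after seeing the data. Python 3.11.15, pandas 2.3.3, numpy 2.4.6, scipy 1.17.1 and matplotlib 3.10.9 were used.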

Additional observations from a re-analysis of the deposited data

How the results depend on the processing

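With 1 library per tissue no replicate could be left out. No paired analysis was possible because each group has a single library. Of 122 alternative values, 50 stayed within the main interval, 71 moved beyond it and 1 turned its sign. For medians the limit was 0.1 on the log2 scale, and for shares of the estimated fragments it was a relative change of 0.1. Shares detected in fat body, ovary, midgut and Malpighian tubules were 84.7%, 85.5%, 72.7% and 90.8% at 0.1 FPKM, 63.8%, 64.3%, 56.5% and 70.8% at 0.5 FPKM, 27.0%, 16.4%, 30.1% and 26.2% at 2 FPKM, 11.1%, 4.18%, 14.2% and 10.6% at 5 FPKM, and 34.8%, 33.4%, 31.2% and 42.6% with at least 10 fragments. With equal sums they were 66.3% in ovary and 66.6% in Malpighian tubules; with a lower bound above 0 Malpighian tubules had 45.1%. Members of 500 bases or more were detected in ovary in 47.9% of cases. At the limits other than 1 FPKM, shares over all transcripts are not given. Ovary without somatic tissue came to 15.9% with equal sums, 16.6% at 500 bases or more, 3.62% at 0.1 FPKM and 1.67% at 5 FPKM, and somatic tissue without ovary to 27.3%, 36.2%, 13.6% and 18.1%. The highest tissue was fat body for 13.9%, ovary for 37.0%, midgut for 11.1% and Malpighian tubules for 37.3% with equal sums, midgut for 21.7% and Malpighian tubules for 30.1% with the median ratio, and ovary for 36.2% and Malpighian tubules for 19.6% at 500 bases or more. The difference of ovary to the somatic mean turned from -0.47 to 0.13 with equal sums, and was -0.36 at 500 bases or more, -0.78 with a pseudocount of 0.1 and -0.32 without a filter on low values. Enriched members made up 27.9% at a ratio of 2, 0% at a ratio of 10, 15.8% with a pseudocount of 0.1 (background 20%) and, by bounds above those of all other tissues (chosen after seeing the data), 21.5% (background 50.7%). Background shares at ratios of 2 and 10 are not given, so these counts are not set against other transcripts.

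For pairs at a ratio of 4, equal sums gave 4.14% for fat body over ovary and 8.97% for the reverse, 13.9% for ovary over midgut and 5.36% for the reverse, 6.49% for ovary over Malpighian tubules, 7.12% for Malpighian tubules over fat body, and 2.36% for midgut over Malpighian tubules and 9.84% for the reverse. A pseudocount of 0.1 gave 27.1% and 16.5% for fat body and ovary, 19.4% and 16.7% for fat body and midgut, 10.1% and 12.2% for fat body and Malpighian tubules, 22.6% and 32.3% for ovary and midgut, 13.3% and 29.5% for ovary and Malpighian tubules, and 10.6% and 15.6% for midgut and Malpighian tubules, the first tissue higher first. Without a filter the shares were 6.13% for fat body over ovary, 5.01% for fat body over midgut and 8.91% for midgut over ovary. Background shares with a pseudocount of 0.1 are given above only for Malpighian tubules with fat body and midgut, and none without a filter. The cause of each shift was not tested. Placement did not move with limits of 50000 and 500000 bases. Depth limits most values, since a median member has 4.0 to 12.0 fragments per tissue.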
